A study of Mus musculus with 12 samples.

Results

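The genes described here are 34 genes of the unfolded protein response and of protein folding in the endoplasmic reticulum (ER) of mouse liver. They were chosen by gene name from a fixed list of ER stress sensors, chaperones, disulfide isomerases and components of ER-associated degradation. The rule used names and no measured value, but the list was drawn up with earlier results of these data known. All 34 were among the 54532 genes of the deposited RNA-seq table, and all 34 passed the low-value filter that left 11451 genes for testing. The livers came from wild-type mice of the strain labelled C57/BL6J, and 4 groups of 3 libraries each were compared: sham-operated mice, and mice sampled 3, 6 or 12 h after removal of 70% of the liver. The RNA was polyadenylated RNA from whole liver tissue. The labels give neither the age of the mice nor an hour for the sham group, so the time of day, feeding and the operation cannot be told apart from the resection. Whether each library stands for its own animal is not stated. The p-values therefore weigh group differences against the spread between libraries within groups, which may not be the spread between animals.

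The ER folds and modifies the proteins that a cell secretes or places in its membranes, and hepatocytes, which make most plasma proteins, carry a large load of such work. When unfolded proteins accumulate, a set of membrane sensors signals to the nucleus: IRE1 (gene Ern1) splices the mRNA of the transcription factor XBP1, ATF6 is cut to release a transcription factor, and PERK (gene Eif2ak3) slows translation by phosphorylating eIF2alpha. The response raises chaperones, disulfide isomerases and the machinery that returns misfolded proteins to the cytosol for destruction by the proteasome.

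Library totals ranged from 15573405 to 17199639 counts, and the 34 genes took 0.671 to 0.840% of the counts in sham and 0.674 to 0.731% at 3 h. Their share was 0.875 to 1.11% at 6 h, and the 12 h libraries gave 1.07 to 1.26%. One sham library differed from the rest: replicate 1 had 11.9% of its counts on mitochondrial genes against 6.26 and 5.52% in the other sham libraries and 5.94 to 8.49% after resection. The replicate labelled 6 h number 3 has 7 h as its time tag, and its title decided its group. Pancreatic acinar cells and plasma cells, both rich in ER, left little trace: 10 of 11 listed acinar genes were at 0.936 FPKM or less in every library, and so were 7 of 8 plasma and B cell genes, at 0.909 or less. (FPKM is a level corrected for gene length and library size.) Cpb1, Amy2a5, Try4, Prss2 and Pdia2, all acinar genes, had 0 counts in every library. The exceptions were Cela1, at 3.55 to 10.9 FPKM, and Sdc1, a gene that hepatocytes also express, at 37.5 to 113 FPKM. Summed over 8 hepatocyte markers, the level was 37990 to 39860 FPKM in sham, 40420 to 50060 at 3 h and 36920 to 42670 at 6 h, and at 12 h it was 24420 to 26140. Alb held most of this sum, at 22880 to 27610 FPKM in sham and 15570 to 17190 at 12 h. Alb, Ttr and Cyp2e1 lay below sham at 12 h, while Apoa1, Cps1, Tat, Serpina1c and Hnf4a overlapped it. The sum of 8 neutrophil markers was 1.21 to 1.74 FPKM in sham, 12.2 to 12.4 at 3 h, 8.18 to 18.5 at 6 h, and at 12 h 6.00 to 7.96. Outside the range of sham lay, among others, the summed markers of cholangiocytes at 6 h (30.6 to 38.5 FPKM against 18.8 to 21.4), of macrophages at 12 h (29.4 to 36.1 against 40.4 to 54.1) and of red blood cells at 12 h (46.8 to 67.1 against 89.3 to 114). At 3 h, macrophage (56.6 to 75.1), endothelial (37.9 to 47.6 against 24.1 to 30.3), cholangiocyte (28.6 to 39.1) and red blood cell (142 to 166) sums lay above sham, as did 12 h cholangiocyte sums (22.6 to 30.7). Spp1 held most of the 12 h cholangiocyte sum (20.65 to 27.11 FPKM against 15.84 to 17.58 in sham). Krt7 also lay above sham, at 0.1535 to 0.2175 FPKM, and Sox9, Epcam, Krt19 and Cldn7 overlapped it. Of the macrophage markers at 12 h, Clec4f, Csf1r, Adgre1 and Ly6c2 lay below sham. Marco lay above it (5.207 to 9.103 FPKM against 0.428 to 1.732), and the others overlapped. The part of these shifts in the differences below was not tested. In whole tissue, fewer cells of a type cannot be told apart from less RNA per cell or from changes in single markers.

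Most of the change came between 3 and 6 h. At 3 h, 2 of the 34 genes were called higher than sham and 3 lower, with 9.81 and 11.7% of all tested genes called in those directions, so the 5.88 and 8.82% of the ER genes were not above the background. A gene was called when its edgeR quasi-likelihood test gave a Benjamini-Hochberg adjusted p under 0.05 over all tested genes. At 6 h, 17 (50.0%) were higher and 2 (5.88%) lower, against 16.8 and 18.2% of all genes. At 12 h, 15 (44.1%) were higher, against 13.5% of all genes. In either direction, 14.7, 55.9 and 44.1% of the 34 genes were called at 3, 6 and 12 h, against 21.6, 35.0 and 28.8% of all genes. None was called lower at 12 h by edgeR, against 15.3% of all genes. DESeq2 and limma likewise called 0, and 3 genes had an unadjusted edgeR p under 0.05. The median difference from sham over the 34 genes was 0.03 on the log2 scale at 3 h, 0.54 at 6 h and 0.39 at 12 h, and the median over all tested genes was -0.02, -0.01 and -0.02. These comparisons share the same sham libraries and are not independent of each other. Without sham replicate 1, 18 were higher and 4 lower at 6 h, where 21.3 and 21.5% of all genes were then called. At 12 h 19 were then higher and 2 lower, against 22.7 and 23.3% of all genes, with Eif2ak3, Dnajb9, Canx and Sel1l the added higher and Fkbp2 and Os9 the lower genes. Scaling by library totals instead of TMM, the trimmed mean that sets most genes level, moved the median of all genes by -0.176 at 3 h and -0.308 at 6 h, and the share of higher genes among all calls at 6 h from 48.1 to 22.1% (at 3 h from 45.5 to 25.3%). Under it 10 of the 34 genes were higher at 6 h, against 1048 of the 11451 tested genes. The calls of Atf6, Hsp90b1, Dnajc3, Dnajc10, P4hb, Edem1 and Derl1 were lost, while their sign was kept.

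Group ranges gave like counts. At 3 h, 2 genes lay wholly above the sham range and 3 wholly below it, against 18.9 and 17.5% of all genes. At 6 h the counts were 18 above and 2 below, against 23.1 and 20.8%. At 12 h they were 16 above and 2 below, against 19.7 and 18.9%. Across the 4 groups together, 24 of the 34 genes (70.6%) differed by the edgeR F-test, against 50.0% of all tested genes. The highest group mean was at 6 h for 17 genes, at 12 h for 12, at 3 h for 3 and in sham for 2. The same was not counted over all tested genes, so these last counts have no background beside them.

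**Figure D1:**
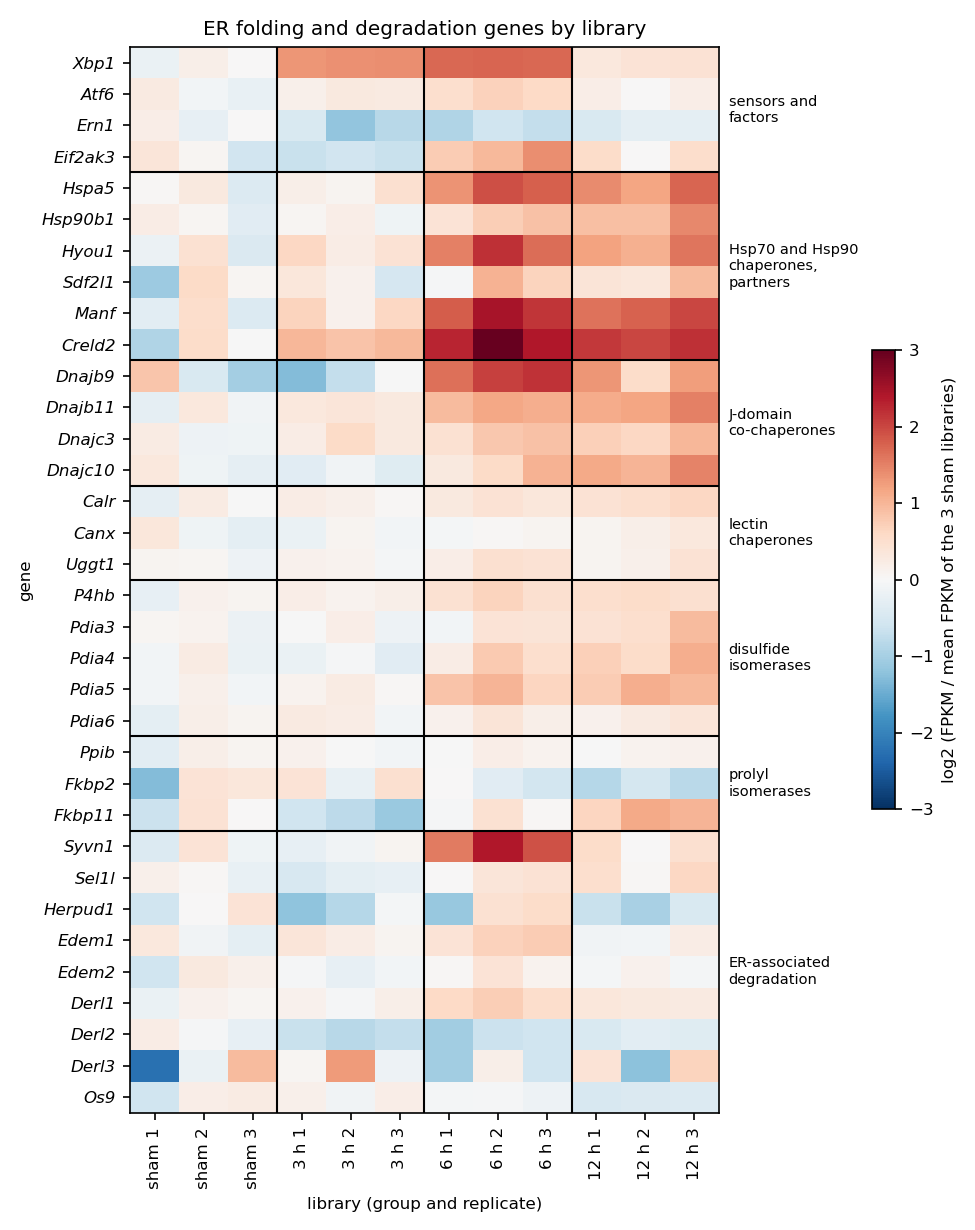
Level of each of the 34 genes (rows, grouped by role) in each of the 12 libraries (columns), as log2 of FPKM over the mean of the 3 sham libraries; red is above that mean and blue below. Xbp1 is red from 3 h, most Hsp70-type chaperones and partners and the J-domain genes turn red at 6 h, and Ern1 and Derl2 are blue in all 3 libraries at 3 and at 6 h.

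The promoters of many of these genes carry a known sequence, the ER stress response element (ERSE), which is bound by ATF6 together with NF-Y and was described in promoters of ER chaperone genes, Hspa5 among them. Its consensus, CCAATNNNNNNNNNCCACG, and that of the related ERSE-II, ATTGGNCCACG, were searched on both strands of the RefSeq promoters (build GRCm38.p6, 250 bases before to 50 after each start), in which 30 of the 34 genes had an entry. Atf6, Hyou1, Manf and Derl1 had none. ERSE was found in 9 of the 30 genes, or 30%, against 37 of 27025 genes with a promoter entry, or 0.137%. ERSE-II was found in Dnajb11 and Herpud1, or 6.67% of the 30, against 0.0444% of all genes. The core that XBP1 binds in other promoters, TGACGTGG, was in 0 of the 30 windows and in 0.714% of all genes, which says only that these letters are not in these windows. The sequences below show the match in capitals with 15 bases on each side, because the genes holding it moved in different ways. Those of Hspa5 (chr2:34772010-34772058, plus strand), Creld2 (chr15:88819505-88819553, plus strand), Dnajc3 (chr14:118937812-118937860, plus strand) and Syvn1 (chr19:6046517-6046565, plus strand) belong to genes that rose at 6 h. Hsp90b1, which also rose at 6 h, holds a match on each strand (chr10:86705518-86705671, minus strand). Calr (chr8:84847060-84847108, minus strand) rose at 12 h but was not called at 6 h. Canx (chr11:50325785-50325833, minus strand), Pdia6 (chr12:17266476-17266524, plus strand) and Derl3 (chr10:75893227-75893275, plus strand) were called in no comparison, and neither was Herpud1 (chr8:94386362-94386402, plus strand), whose match is ERSE-II. Dnajb11, the other gene with ERSE-II, was called higher at 6 and 12 h, and its sequence is not shown. Where the capitals start with CGTGG, the element lies on the opposite strand.
Hspa5: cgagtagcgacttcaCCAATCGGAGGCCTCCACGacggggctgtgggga
Hsp90b1: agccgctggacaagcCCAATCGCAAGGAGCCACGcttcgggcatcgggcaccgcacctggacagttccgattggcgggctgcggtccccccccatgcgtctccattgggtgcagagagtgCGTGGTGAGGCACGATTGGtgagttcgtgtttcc
Creld2: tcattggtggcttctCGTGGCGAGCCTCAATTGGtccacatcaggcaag
Dnajc3: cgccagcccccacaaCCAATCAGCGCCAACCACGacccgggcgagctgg
Syvn1: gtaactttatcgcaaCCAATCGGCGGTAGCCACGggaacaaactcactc
Calr: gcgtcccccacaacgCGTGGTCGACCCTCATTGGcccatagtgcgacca
Canx: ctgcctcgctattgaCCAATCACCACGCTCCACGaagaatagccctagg
Pdia6: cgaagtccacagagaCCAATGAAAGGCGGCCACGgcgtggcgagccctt
Derl3: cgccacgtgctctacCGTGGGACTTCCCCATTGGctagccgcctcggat
Herpud1: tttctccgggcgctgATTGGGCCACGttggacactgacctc

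Called genes were found both with and without an element. At 6 h, 6 of the 11 genes with ERSE or ERSE-II were higher than sham, with a median log2 difference of 0.66 over the 11, and 7 of the 19 genes without either were higher, with a median of 0.35. At 12 h the counts were again 6 of 11 and 7 of 19, with medians of 0.51 and 0.38. Atf6, Hyou1, Manf and Derl1, without a promoter entry, are in neither class. All of them were called higher at 6 h, and Hyou1 and Manf also at 12 h. The difference between the classes was not tested. The matches lay at varied places: that of Syvn1 spanned -44 to -26 from the start base (counted as 0), that of Hspa5 -65 to -47, and that of Calr -162 to -144.

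**Figure D2:**
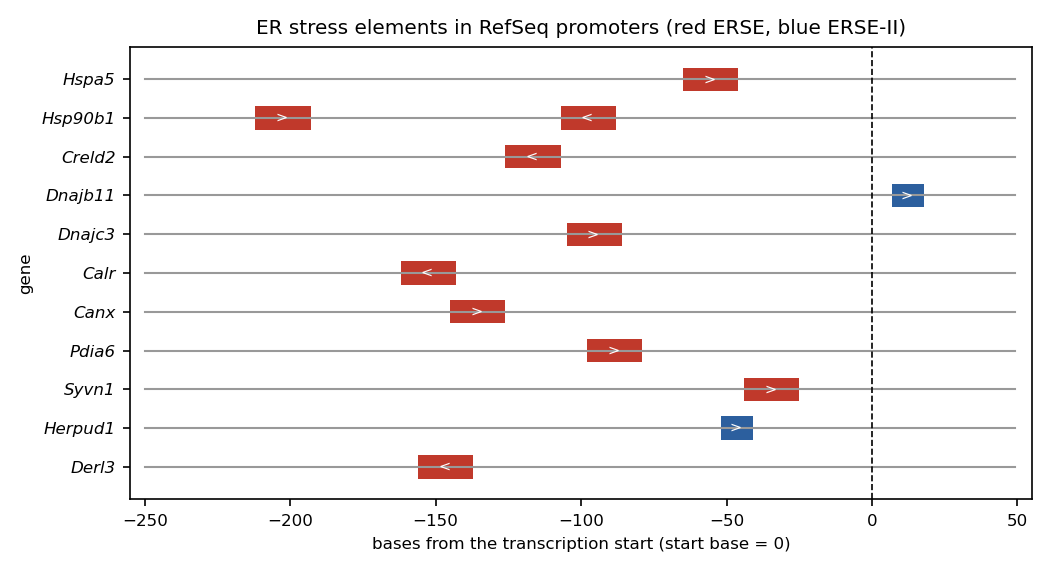
Position of each ERSE (red) and ERSE-II (blue) match in the promoters of the 11 genes that hold one, in bases from the transcription start (dashed line); arrows give the strand of the match relative to the gene. All but the Dnajb11 match lie upstream of the start, and Hsp90b1 holds 2.

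Among the sensors and their transcription factors, Xbp1 was higher and Ern1 lower already at 3 h. Xbp1 (ENSMUSG00000020484, GRCm38 chr11:5520659-5525893, plus strand) encodes the transcription factor whose mRNA IRE1 splices; counts per gene cannot separate its spliced from its unspliced form. Its level was 59.6, 76.1 and 68.0 FPKM in the 3 sham libraries, 169, 174 and 178 at 3 h, 224, 227 and 224 at 6 h, and 84.5, 89.9 and 91.7 at 12 h. No group overlapped another, 6 h lay highest, and 12 h had come back to just above sham. The difference between 3 and 6 h was not called (log2 0.39 ± 0.12 SE, edgeR adjusted p = 0.0666). Xbp1 was 2.49-fold higher at 3 h (log2 difference 1.32 ± 0.12 SE, edgeR adjusted p = 1.08e-05), and 3.25-fold higher at 6 h (1.70 ± 0.12, edgeR adjusted p = 7.14e-07). Between 6 and 12 h it fell by 1.33 ± 0.12 (SE) on the log2 scale (edgeR adjusted p = 1.23e-05). The remaining difference at 12 h, 1.30-fold (edgeR adjusted p = 0.0338), was lost when any of sham replicate 3 and the 12 h libraries was left out (edgeR adjusted p 0.0561 to 0.101).

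Ern1, the gene of the sensor IRE1 itself, stood at 11.1, 8.13 and 9.73 FPKM in sham, 6.99, 4.28 and 5.45 at 3 h, 5.15, 6.40 and 5.88 at 6 h, and 7.00, 7.87 and 7.89 at 12 h. Every library after resection lay below every sham library. The decrease was called at 3 h (-0.83 ± 0.18 log2 SE, edgeR adjusted p = 0.00490) and at 6 h (-0.76 ± 0.18, edgeR adjusted p = 0.00484) but not at 12 h (-0.36 ± 0.18, edgeR adjusted p = 0.149).

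The PERK gene Eif2ak3 was at 2.96, 2.41 and 1.56 FPKM in sham, 1.46, 1.56 and 1.46 at 3 h, 3.93, 4.50 and 6.02 at 6 h, and 3.38, 2.35 and 3.33 at 12 h. The 6 h libraries lay above all others, and those at 3 h close to the lowest sham library. It was 2.05-fold higher than sham at 6 h (log2 1.04 ± 0.23 SE, edgeR adjusted p = 0.00344) and 3.25-fold higher at 6 h than at 3 h (1.70 ± 0.24, edgeR adjusted p = 0.00127). Atf6, the gene of the sensor cleaved in the Golgi, was at 5.72 to 8.04 FPKM in sham, 7.44 to 8.28 at 3 h, 9.57 to 10.9 at 6 h, and at 12 h 6.82 to 7.68. Its 6 h libraries lay above all others, by 1.49-fold against sham (edgeR adjusted p = 0.00539), and at 12 h it was lower than at 6 h (log2 -0.45 ± 0.14 SE, edgeR adjusted p = 0.0304). That decrease was lost without any 1 of 6 h replicates 2 or 3 or of the 12 h libraries (edgeR adjusted p 0.0624 to 0.111).

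**Figure D3:**
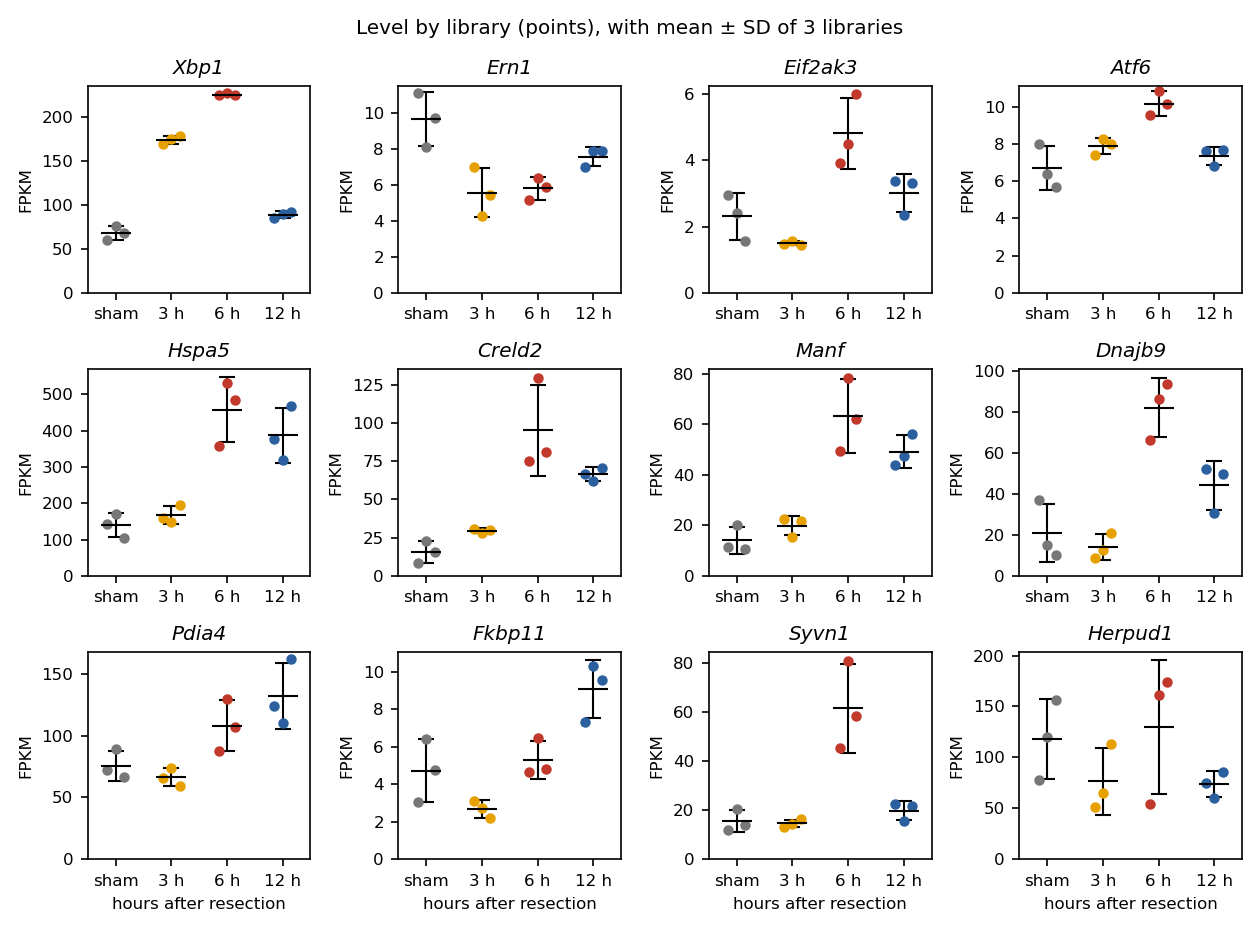
FPKM in each library (points) for 12 of the genes in sham and at 3, 6 and 12 h, with the mean and SD of the 3 libraries of each group (bars); each panel has its own linear axis starting at 0. Xbp1 is high at 3 and 6 h, Syvn1 at 6 h, Hspa5, Creld2 and Manf at 6 and 12 h, while the Herpud1 points overlap between all groups.

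The Hsp70 and Hsp90 chaperones and their partners had the largest median differences of the 7 roles: 5 of 6 were called higher at 6 h and 5 of 6 at 12 h, with medians over the 6 of 1.74 and 1.38 on the log2 scale. Hspa5 (ENSMUSG00000026864, GRCm38 chr2:34771970-34777547, plus strand) encodes BiP, the Hsp70 of the ER lumen, which also holds the sensors inactive. It was at 143, 171 and 105.6 FPKM in sham, 159, 148 and 195 at 3 h, 357, 531 and 484 at 6 h, and 376, 318 and 468 at 12 h. The 3 h libraries overlapped sham, and every library at 6 and 12 h lay above both. The rise was 3.21-fold at 6 h (log2 1.68 ± 0.21 SE, edgeR adjusted p = 5.09e-05) and 2.75-fold at 12 h (1.46 ± 0.21, edgeR adjusted p = 3.00e-04).

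Creld2, an ER protein that stress induces and that can be secreted, had the largest difference of the 34 genes at 6 h. It measured 8.27, 22.7 and 15.5 FPKM in sham, 30.7, 27.8 and 30.3 at 3 h, 75.1, 129 and 81.1 at 6 h, and 66.9, 61.9 and 70.8 at 12 h. No 2 groups overlapped, and the order was sham, 3 h, 12 h and 6 h. Its difference between 6 and 12 h was not called (log2 -0.50 ± 0.28 SE, edgeR adjusted p = 0.216). Against sham it was 6.02-fold higher at 6 h (log2 2.59 ± 0.30 SE, edgeR adjusted p = 2.60e-05) and 4.26-fold higher at 12 h (2.09 ± 0.30, edgeR adjusted p = 2.52e-04). Its smaller difference at 3 h, log2 0.89 ± 0.29 (edgeR adjusted p = 0.0421), was lost without sham replicate 1 (0.59, edgeR adjusted p = 0.0701). It was lost too without sham replicate 3 or any 1 of the 3 h or 12 h libraries (edgeR adjusted p 0.0567 to 0.0951). In those fits Xbp1 was the remaining called rise at 3 h. Without sham replicate 1, Atf6 was called higher at 3 h beside Xbp1 (log2 0.343, edgeR adjusted p = 0.0458).

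Manf, a secreted partner of BiP, was at 11.4, 20.2 and 10.6 FPKM in sham, 22.4, 15.4 and 21.8 at 3 h, 49.4, 78.4 and 62.2 at 6 h, and 43.8, 47.7 and 56.3 at 12 h. All 6 libraries of the later times lay above all of sham and 3 h, 4.41-fold against sham at 6 h (edgeR adjusted p = 3.44e-05) and 3.47-fold at 12 h (edgeR adjusted p = 2.58e-04). Hyou1, a large Hsp70 relative that exchanges the nucleotide of BiP, went from 10.5 to 19.6 FPKM in sham to 40.8 to 65.0 at 6 h, a 3.48-fold rise (edgeR adjusted p = 1.01e-04), and was 2.47-fold higher at 12 h (edgeR adjusted p = 0.00170). Manf overlaps other annotated genes, among them Dcaf1 on the opposite strand with up to 652 counts, and the strand used in counting is not given in the sources used here.

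Hsp90b1 encodes GRP94, the Hsp90 of the ER. Its values were 155, 137 and 105 FPKM in sham, 138, 152 and 122 at 3 h, 175, 221 and 245 at 6 h, and 248, 247 and 357 at 12 h. The 12 h libraries were the highest of all, 2.13-fold above sham (log2 1.09 ± 0.19 SE, edgeR adjusted p = 0.00122). Its difference between 6 and 12 h was not called (log2 0.43 ± 0.19 SE, edgeR adjusted p = 0.122). The 1.58-fold difference at 6 h (edgeR adjusted p = 0.0168) was lost without sham replicate 3 (edgeR adjusted p = 0.0712) or without 6 h replicate 3 (edgeR adjusted p = 0.0717). Sdf2l1, a partner of ER J-domain proteins, ranged from 14.2 to 44.5 FPKM within sham alone and was called at no time, with log2 differences of 0.60 ± 0.37 (SE) at 6 h and 0.58 ± 0.37 at 12 h.

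The J-domain co-chaperones stimulate the ATPase of BiP and pass clients to it, and all 4 were called higher at 6 h. Dnajb9 (ERdj4), which binds misfolded proteins bound for degradation, stood at 37.3, 15.3 and 10.4 FPKM in sham, 8.49, 12.7 and 20.9 at 3 h, 66.3, 86.5 and 93.8 at 6 h, and 52.2, 30.6 and 49.8 at 12 h. The 6 h libraries were above all the others, and sham replicate 1 lay above one of the 12 h libraries. Its rise from 3 to 6 h, 5.94-fold (log2 2.57 ± 0.43 SE, edgeR adjusted p = 0.00335), was the largest of the 34 genes between those times, and against sham it was 3.86-fold higher at 6 h (edgeR adjusted p = 0.00267). At 12 h its 2.10-fold difference from sham was not called (log2 1.07, edgeR adjusted p = 0.0666), but it was without sham replicate 1 (log2 1.77).

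Dnajb11 (ERdj3), a lumenal partner of BiP, was at 18.3, 27.3 and 20.3 FPKM in sham, 27.5, 28.4 and 26.9 at 3 h, 42.3, 49.2 and 46.8 at 6 h, and 47.6, 49.8 and 62.2 at 12 h. The later libraries did not overlap sham or 3 h, and the rise was 2.06-fold at 6 h (edgeR adjusted p = 2.73e-04) and 2.40-fold at 12 h (edgeR adjusted p = 1.32e-04). Dnajc10 (ERdj5), a reductase that opens disulfide bonds of proteins to be degraded, went from 4.91 to 7.36 FPKM in sham and 7.16 to 12.2 at 6 h to 12.0 to 16.5 at 12 h. Its 6 h and sham groups overlapped, and that call (log2 0.65 ± 0.21 SE, edgeR adjusted p = 0.0273) was lost without sham replicate 2, sham replicate 3 or 6 h replicate 3 (edgeR adjusted p 0.0877 to 0.149). At 12 h it was 2.34-fold higher without overlap (edgeR adjusted p = 9.25e-04). Dnajc3 (p58IPK), a co-chaperone known as an inhibitor of PERK, was 1.62-fold higher than sham at 6 h (edgeR adjusted p = 0.00582) and 1.71-fold higher at 12 h (edgeR adjusted p = 0.00443).

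Of the 3 genes of the calnexin cycle, which holds glycoproteins by their sugar while they fold, edgeR called only Calr, at 12 h. The median log2 difference from sham over the 3 was 0.33 at 6 h and 0.22 at 12 h. Calr (calreticulin) was at 222, 317 and 263 FPKM in sham, 309.9, 297 and 274 at 3 h, 328, 359 and 339.6 at 6 h, and 359, 380.0 and 414 at 12 h. Both later groups lay above sham, and the difference was called at 12 h (1.43-fold, edgeR adjusted p = 0.0179) but not at 6 h (1.26-fold, edgeR adjusted p = 0.0963). The 12 h call was lost without sham replicate 3 (edgeR adjusted p = 0.0532) or 12 h replicate 3 (edgeR adjusted p = 0.0725). Canx (calnexin), its membrane-bound counterpart, was at 59.3 to 91.3 FPKM in sham and 69.7 to 76.5 at 6 h, with a log2 difference of -0.0036 ± 0.16 (SE). Uggt1, which marks incompletely folded glycoproteins for another round, was at 5.44 to 6.48 FPKM in sham and 6.96 to 8.48 at 6 h, and its 1.28-fold difference was not called (edgeR adjusted p = 0.0704).

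Of the 5 disulfide isomerases, which form and rearrange disulfide bonds, 2 were called higher at 6 h and 4 at 12 h. P4hb, the protein disulfide isomerase that is also a subunit of prolyl hydroxylase, was the most abundant of the 34 genes in sham. Its level was 309, 404 and 390 FPKM in sham, 421, 399 and 414 at 3 h, 505, 585 and 514 at 6 h, and 519.5, 537 and 516.5 at 12 h. The later libraries all lay above sham and 3 h, by 1.42-fold at 6 h (edgeR adjusted p = 0.00853) and 1.42-fold at 12 h (edgeR adjusted p = 0.0127). Pdia5 was at 19.3, 22.9 and 19.6 FPKM in sham, 37.0, 41.4 and 32.2 at 6 h, and 34.9, 43.7 and 40.6 at 12 h. It was higher without overlap at 6 h (1.76-fold, edgeR adjusted p = 6.72e-04) and at 12 h (1.92-fold, edgeR adjusted p = 4.18e-04).

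Pdia4 (ERp72) and Pdia3 (ERp57, the isomerase that works with calnexin and calreticulin) were called higher than sham at 12 h and not at 6 h. Pdia4 was at 71.9, 89.7 and 66.3 FPKM in sham, 88.1, 130.1 and 107 at 6 h, and 124, 110.5 and 163 at 12 h. Its 6 h group overlapped sham and its 12 h group did not, with a 1.73-fold difference at 12 h (edgeR adjusted p = 0.00731). It was also 1.64-fold higher at 6 h than at 3 h (edgeR adjusted p = 0.0340), a call lost without any 1 of the 3 h libraries or 6 h replicate 2 or 3 (edgeR adjusted p 0.0512 to 0.142). From 6 to 12 h neither gene was called (edgeR adjusted p = 0.259 for Pdia4 and 0.121 for Pdia3). Pdia3 was 1.55-fold higher at 12 h (edgeR adjusted p = 0.0179), a call lost without sham replicate 3 (edgeR adjusted p = 0.0716) or 12 h replicate 3 (edgeR adjusted p = 0.0964). Pdia6, which acts on BiP clients and on IRE1, was at 59.2 to 81.2 FPKM in sham and 78.5 to 92.8 at 12 h, and was called at no time (log2 0.24 ± 0.16 SE at 12 h, edgeR adjusted p = 0.277).

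The 3 prolyl isomerases, which turn proline bonds in folding chains, did not move together. Fkbp11, a membrane-anchored isomerase typical of secretory cells, was at 3.05, 6.40 and 4.75 FPKM in sham, 3.12, 2.75 and 2.19 at 3 h, 4.65, 6.48 and 4.82 at 6 h, and 7.36, 10.3 and 9.58 at 12 h. The 12 h libraries lay above all the others, 1.90-fold above sham (edgeR adjusted p = 0.0142), a call lost without 12 h replicate 2 (edgeR adjusted p = 0.0539). At 3 h it was called lower (log2 -0.85 ± 0.26 SE, edgeR adjusted p = 0.0316), although 1 library at 3 h was above the lowest sham library. That call was lost without sham replicate 2 or 3 or 3 h replicate 2 or 3 (edgeR adjusted p 0.0581 to 0.137). Ppib (cyclophilin B) was nearly level at 26.1 to 37.0 FPKM in sham and 32.3 to 37.2 at 6 h, with a log2 difference of 0.07 ± 0.15 (SE). Fkbp2 was at 24.7, 80.4 and 77.7 FPKM in sham, with replicate 1 far below the others, and at 33.5 to 42.5 at 12 h, a difference that was not called (log2 -0.74 ± 0.34 SE, edgeR adjusted p = 0.125).

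Of the 9 genes of ER-associated degradation, 3 were called higher and 1 lower at 6 h. At 12 h edgeR called 0 in either direction, with 2 higher and 2 lower at an unadjusted p under 0.05, DESeq2 called 1 higher and limma 0. Syvn1 encodes Hrd1, the ubiquitin ligase at the core of the export channel, and Sel1l its adaptor. Syvn1 was at 11.7, 20.5 and 14.1 FPKM in sham, 13.1, 14.3 and 16.3 at 3 h, 45.2, 80.9 and 58.4 at 6 h, and 22.5, 15.5 and 21.5 at 12 h. Only the 6 h libraries stood clear, at 3.91-fold over sham (log2 1.97 ± 0.25 SE, edgeR adjusted p = 4.84e-05). From 3 to 6 h it rose 4.27-fold (edgeR adjusted p = 5.28e-04), and from 6 to 12 h it fell by 1.62 ± 0.24 (SE) on the log2 scale (edgeR adjusted p = 4.37e-04). Syvn1 overlaps Mrpl49 on the opposite strand, which had up to 451 counts, fewer than the lowest Syvn1 count of 948. Sel1l was at 13.2 to 17.2 FPKM in sham, 11.1 to 12.9 at 3 h and 15.5 to 20.9 at 6 h. Its difference from sham was called at no time, and its 1.55-fold rise from 3 to 6 h (edgeR adjusted p = 0.0406) was lost without sham replicate 2, any 3 h library, 6 h replicate 2 or 3, or 12 h replicate 1 (edgeR adjusted p 0.0540 to 0.158).

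Derl1 and Derl2, which encode related membrane proteins of the same export channel, moved in opposite directions. Derl1 was at 32.2, 40.3 and 38.7 FPKM in sham, 55.7, 61.6 and 53.7 at 6 h, and 46.9, 45.6 and 44.5 at 12 h, and was 1.51-fold higher at 6 h (edgeR adjusted p = 0.00282). Derl2 was at 17.1, 14.2 and 12.3 FPKM in sham, 9.17, 8.16 and 8.92 at 3 h, 7.06, 9.26 and 9.69 at 6 h, and 10.6, 11.7 and 11.3 at 12 h. All its libraries after resection lay below sham, with log2 differences of -0.77 ± 0.15 (SE) at 3 h (edgeR adjusted p = 0.00293) and -0.77 ± 0.15 at 6 h (edgeR adjusted p = 0.00162). Derl2 overlaps Mis12 on the opposite strand, which had up to 594 counts against at least 809 for Derl2, so part of its counts may not be its own.

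Edem1, which trims mannose from glycoproteins that fail to fold, was at 21.6 to 33.0 FPKM in sham and 34.8 to 44.8 at 6 h, without overlap. It was 1.52-fold higher at 6 h (edgeR adjusted p = 0.0150) and fell by 0.59 ± 0.17 (SE) on the log2 scale by 12 h (edgeR adjusted p = 0.0238). The 6 h call was lost without sham replicate 2 or 3 or 6 h replicate 3 (edgeR adjusted p 0.0557 to 0.0661), and the later fall without 6 h replicate 2 or 3 or 12 h replicate 1 or 2 (0.0769 to 0.0849). Herpud1, a scaffold of the Hrd1 complex and a common marker of ER stress, was at 77.7, 119.6 and 157 FPKM in sham, 50.7, 65.4 and 113 at 3 h, 53.7, 161 and 174 at 6 h, and 74.8, 60.1 and 85.6 at 12 h. All groups overlapped, 6 h replicate 1 was far below the other 6 h libraries, and the log2 difference at 6 h was 0.11 ± 0.39 (SE). Edem2, Os9 and Derl3 were called at no time. Derl3, the family member typical of secretory cells such as plasma cells, was low at 0.354 to 4.10 FPKM over the 12 libraries.

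**Figure D4:**
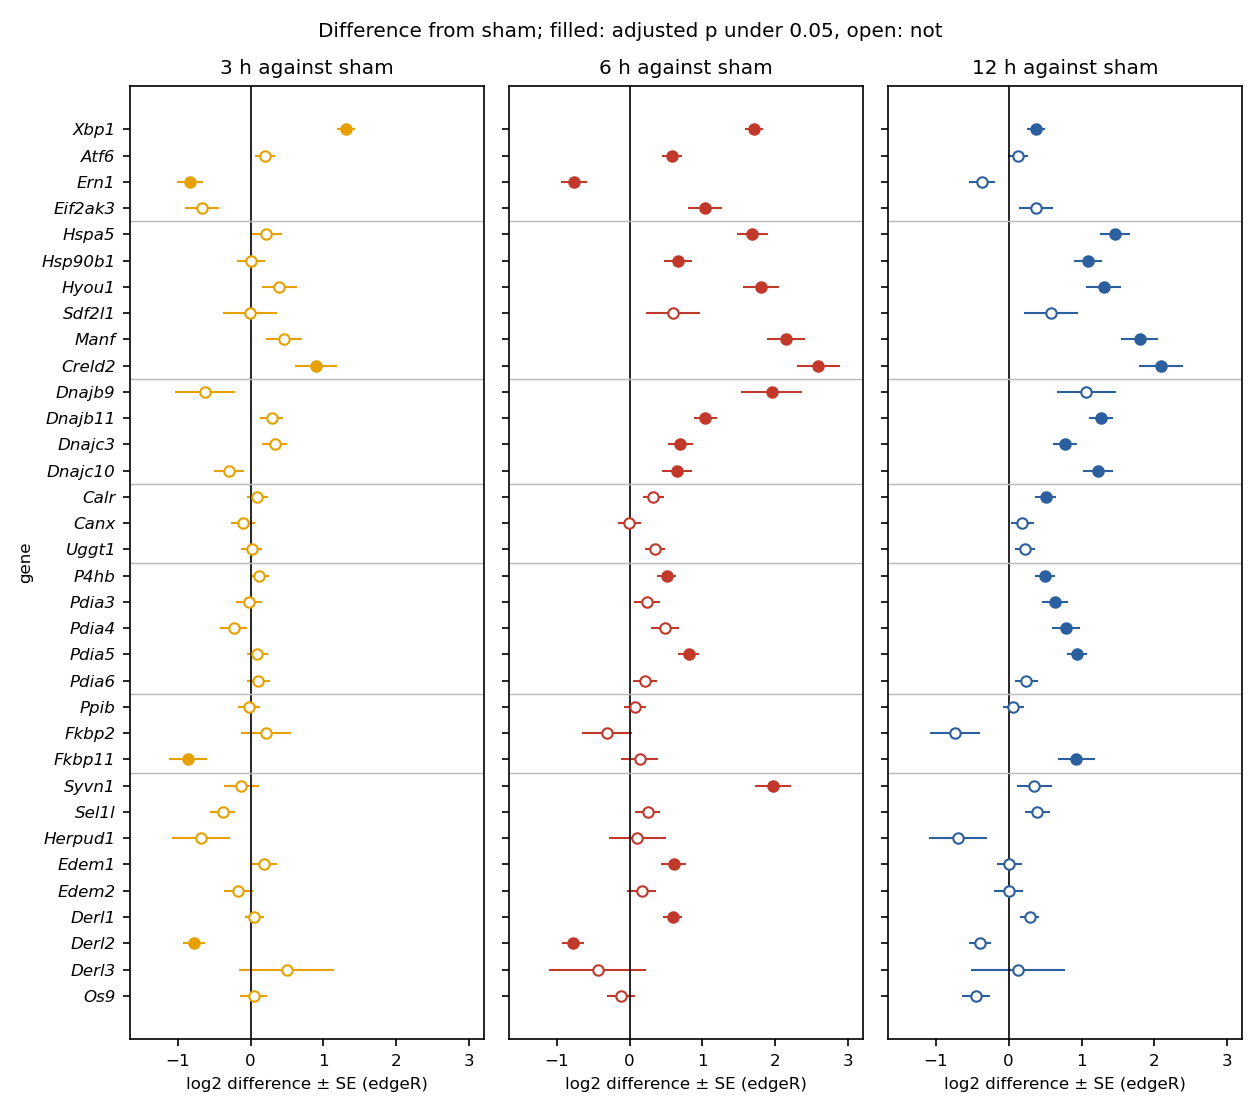
Log2 difference from sham with its standard error (edgeR) for each of the 34 genes at 3, 6 and 12 h; filled points have an adjusted p under 0.05 and open points do not. Filled points on the right number 2 at 3 h, 17 at 6 h and 15 at 12 h, and the ER-associated degradation genes at the bottom have no filled point at 12 h.

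Successive times were also compared directly. From 3 to 6 h, 14 of the 34 genes (41.2%) were called higher, against 4.45% of all tested genes (8.63% in either direction). None was called lower by edgeR, DESeq2 or limma, 0 had an unadjusted p under 0.05 in that direction, and 4.18% of all genes were called lower. The count of 14 became 8 without 3 h replicate 1, 8 without 3 h replicate 3, and 9 without 6 h replicate 2. Of the 11451 tested genes, 191, 264 and 212 were then called higher. Without sham replicate 1 the count was 19, against 9.33% of all genes. Groups did not overlap for 22 genes, all higher at 6 h, against 17.4% of all genes.

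Scaled by library totals, which shifted the all-gene median by -0.132, 10 genes were higher, against 325 of the 11451 tested genes. Of all calls between these times, 30.1% were of higher genes against 51.5% with TMM (40.8% with no low-value filter).

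From 6 to 12 h, 4 genes (11.8%) were lower, against 12.6% of all genes: Xbp1, Syvn1, Edem1 and Atf6. The count was 2 without 6 h replicate 2 or 3 or without 12 h replicate 1 or 2. In those fits 906 to 1148 of the 11451 tested genes were lower. Without sham replicate 1 it was 8, against 19.5% of all genes. Library-total scaling shifted the all-gene median by 0.295. With it, 2 genes were lower and 11 higher, where 569 and 3090 of the 11451 tested genes were called in those directions. Of all calls, 84.4% were of higher genes against 49.0% with TMM. Groups did not overlap for 9 genes lower at 12 h and 6 higher, against 25.8 and 21.0% of all genes. Fkbp11 was the 1 gene higher with TMM (2.94% against 12.1% of all genes), and that call was lost without 6 h replicate 1 or 3 or 12 h replicate 2 or 3 (edgeR adjusted p 0.0951 to 0.118).

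Against sham, 9 genes were higher at both 6 and 12 h but not at 3 h, 6 were higher at 6 h alone of the 3 times, and 4 at 12 h alone. Those at 6 h alone were Atf6, Eif2ak3, Dnajb9, Syvn1, Edem1 and Derl1. Those at 12 h alone were Calr, Pdia3, Pdia4 and Fkbp11. A call at one time and not at another does not show that the times differ. Of these 10 genes, the difference between 6 and 12 h was itself called for Atf6, Syvn1, Edem1 and Fkbp11. The call patterns were not counted over all tested genes, so the counts of 9, 6 and 4 have no background beside them.

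A few abundant genes carried most of the summed level. P4hb, Calr, Pdia3, Hspa5 and Hsp90b1 together held 51.5 to 60.8% of the summed FPKM of the 34 genes in each library. The whole sum was 1789, 2219 and 1944 FPKM in sham, 2198, 2181 and 2205 at 3 h, 2810, 3623 and 3342 at 6 h, and 2853, 2817 and 3379 at 12 h. All libraries at 6 and 12 h were above all of sham and 3 h. The 6 Hsp70 and Hsp90 genes and partners rose from 279 to 415 FPKM in sham to 726 to 1086 at 6 h and 742 to 1054 at 12 h. The disulfide isomerases went from 622 to 765 FPKM to 857 to 1059 and 968 to 1111, while the prolyl isomerases, at 53.8 to 124 FPKM in sham and 73.3 to 87.7 at 12 h, overlapped sham. Within the 6 h group, replicate 1 had the lowest value in 29 of the 34 genes and replicate 2 the highest in 23. Within the 12 h group, replicate 3 had the highest in 24.

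**Figure D5:**
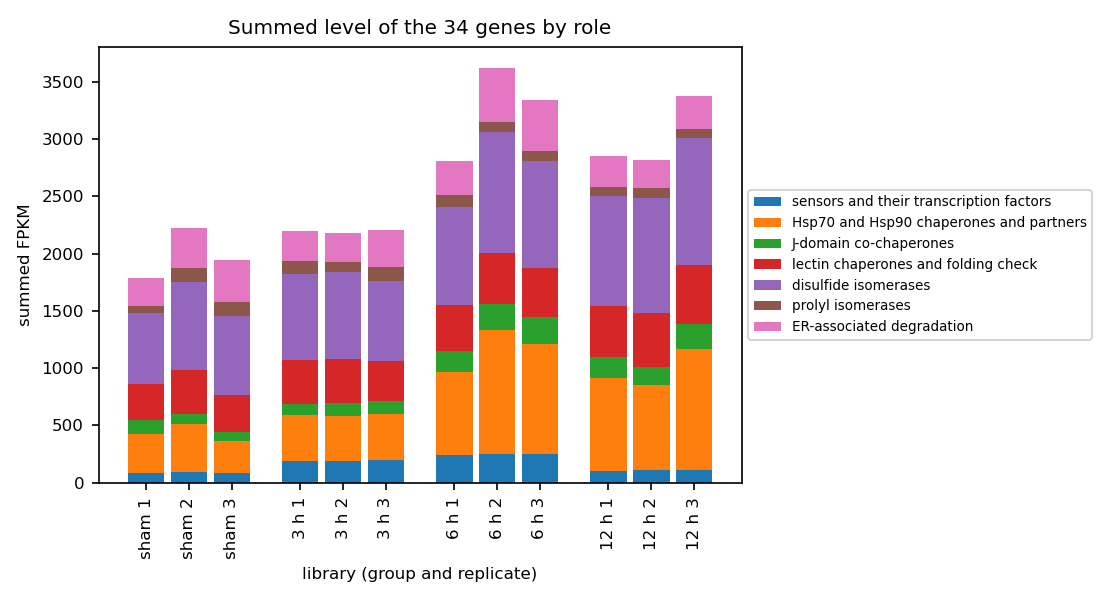
Summed FPKM of the 34 genes in each of the 12 libraries (bars from 0), divided by role. The totals are 1789 to 2219 FPKM in sham, 2810 to 3623 at 6 h and 2817 to 3379 at 12 h, and the Hsp70 and Hsp90 chaperones with their partners grow from 279 to 415 FPKM in sham to 726 to 1086 at 6 h.

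Other genes of the pathway were read from 4 further lists, whose counts stand against the shares of all tested genes called higher and lower: 9.81 and 11.7% at 3 h, 16.8 and 18.2% at 6 h, and 13.5 and 15.3% at 12 h. Nothing particular to a list was tested. Of 17 tested genes of stress signalling, 1 was higher and 1 lower than sham at 3 h, 7 and 3 at 6 h, and 3 and 4 at 12 h, with a median log2 difference of 0.24 at 6 h and 0.15 at 12 h. Wfs1, an ER membrane protein that restrains ATF6, was at 2.14, 2.20 and 2.36 FPKM in sham, 2.02, 1.69 and 1.77 at 3 h, 6.49, 8.71 and 8.09 at 6 h, and 3.59, 2.99 and 3.74 at 12 h. Its 6 h libraries stood far above the rest, with a log2 difference from sham of 1.77 ± 0.16 (SE, edgeR adjusted p = 4.03e-06). Creb3l2, a transcription factor cleaved in the same way as ATF6, was also higher at 6 h (1.55 ± 0.25, edgeR adjusted p = 3.70e-04) and lower again at 12 h than at 6 h (-1.40 ± 0.25, edgeR adjusted p = 0.00143). Crebrf, a negative regulator of CREB3, was lower at all 3 times, by -1.60 ± 0.30, -1.82 ± 0.30 and -1.12 ± 0.29 on the log2 scale (edgeR adjusted p = 0.00180, 4.12e-04 and 0.0118). Tmbim6, an ER membrane protein that protects against cell death, was at 226 to 301 FPKM in sham and 124 to 128 at 12 h (log2 -1.08 ± 0.14 SE, edgeR adjusted p = 1.20e-04).

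The PERK arm and targets of ATF4, the factor translated when eIF2alpha is phosphorylated, gave 3 of 11 genes higher and 1 lower at 6 h, and 3 and 1 at 12 h, with medians of 0.50 and 0.11. At 3 h edgeR called 2 lower and 0 higher, where DESeq2 and limma also called 0 higher and 1 had an unadjusted p under 0.05. Atf4 itself was not called, with log2 differences of 0.26 ± 0.20 (SE) at 3 h, 0.50 ± 0.20 at 6 h and 0.11 ± 0.20 at 12 h (edgeR adjusted p = 0.413, 0.0763 and 0.737). Trib3, a pseudokinase among its targets, was at 2.58, 5.64 and 2.35 FPKM in sham, 0.319, 0.434 and 0.590 at 3 h, 1.36, 1.83 and 1.14 at 6 h, and 1.40 to 1.68 at 12 h. It was lower at each time without overlap, by -3.02 ± 0.39 on the log2 scale at 3 h (SE, edgeR adjusted p = 1.43e-04), and its calls at 6 h (edgeR adjusted p = 0.00972) and 12 h (0.0172) were lost without sham replicate 2 (0.0690 and 0.123). The 12 h call was lost without 12 h replicate 2 or 3 too (edgeR adjusted p = 0.0507 and 0.0655). Ddit3 (CHOP), the factor tied to cell death in prolonged stress, was at 1.92 to 3.55 FPKM in sham and 3.87 to 7.62 at 12 h (log2 1.0 ± 0.28 SE, edgeR adjusted p = 0.0170), a call lost without 12 h replicate 3 (edgeR adjusted p = 0.0890). Asns (asparagine synthetase) was at 1.73 to 2.77 FPKM in sham and 4.47 to 6.33 at 12 h (1.26 ± 0.22, edgeR adjusted p = 0.00103). Eif2s1, the gene of eIF2alpha, was higher at 12 h too (0.99 ± 0.14, edgeR adjusted p = 3.00e-04).

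Of 28 further genes of ER folding, 6 were higher and 1 lower at 6 h, with equal numbers at 12 h and medians of 0.19 and 0.23. At 3 h edgeR and limma called 0 and DESeq2 1, and 0 had an unadjusted edgeR p under 0.05. Hspa13, an Hsp70 relative, was at 2.78 to 6.75 FPKM in sham and 11.5 to 15.3 at 6 h (log2 1.56 ± 0.24 SE, edgeR adjusted p = 2.71e-04). Txndc11, a thioredoxin-domain protein, was higher at 6 h (1.21 ± 0.16, edgeR adjusted p = 6.88e-05). Mesd, a chaperone of lipoprotein receptors, was higher at 12 h (0.96 ± 0.13, edgeR adjusted p = 1.89e-04). Sil1, a nucleotide exchange factor of BiP like Hyou1, was lower at 12 h (-0.75 ± 0.15, edgeR adjusted p = 0.00247).

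Of 30 further genes of ER-associated degradation, 12 were higher and 2 lower at 6 h, and 5 and 2 at 12 h, with medians of 0.10 and 0.07. At 3 h 4 were higher and edgeR, DESeq2 and limma called 0 lower, with 5 lower at an unadjusted edgeR p under 0.05. Ube2g2, the ubiquitin-conjugating enzyme that serves this route, was at 7.80, 8.29 and 9.18 FPKM in sham, 17.7, 14.1 and 20.8 at 3 h, 18.4, 19.3 and 17.1 at 6 h, and 8.15, 11.2 and 7.37 at 12 h. It was high at 3 and 6 h and overlapped sham at 12 h (log2 1.01 ± 0.18 SE at 3 h, edgeR adjusted p = 0.00123). Rnf185, a ubiquitin ligase of the ER membrane, was higher at 6 h (1.02 ± 0.15, edgeR adjusted p = 1.82e-04) and Svip, an inhibitor of the export route, lower (-1.24 ± 0.27, edgeR adjusted p = 0.00287). Rnf5, a ligase related to Rnf185, was called lower at 12 h (-1.21 ± 0.35, edgeR adjusted p = 0.0189), a call lost without sham replicate 3 or 12 h replicate 1 or 3 (edgeR adjusted p 0.0506 to 0.101).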

How the data were processed

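RNA was extracted with TRIzol and libraries made with a NEBNext Ultra kit, per the labels' protocols. The submitters' processing notes name CASAVA 1.8, fastp, HISAT2 2.0.5, featureCounts 1.5.0-p3, DESeq2 1.20.0 and GRCm38 (mm10), with no role or order given. The deposited table gives whole-number counts per gene and library, not normalized. From the values, the deposited FPKM are counts per gene length, scaled by a median-ratio size factor times the geometric mean of the library totals, to within 3.82e-07%. Gene length and position are as deposited.

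Genes with 1 FPKM or more in at least 3 of the 12 libraries were tested, and they held at least 99.1% of each library's counts. Counts were fitted with edgeR 4.0.16 (R 4.3.3; TMM scaling, quasi-likelihood F-test, one fit over all 4 groups, no block), and p-values were adjusted over all tested genes by the Benjamini-Hochberg method. The SE is the log2 difference divided by the square root of F. The 3 libraries per group and a biological coefficient of variation of 20.6% limit the precision. DESeq2 1.42.0 and limma 3.58.1 on log2(FPKM + 1) and log2(FPKM + 0.1) were alternatives. The scripts were tested on simulated data.

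The 34 genes and the 4 further lists were chosen with earlier results of these data known. All 34 are accounted for in the text. In each further list, up to 4 called genes with the largest difference from sham were named, and Atf4 and Ddit3 in any case. Protein sequences were not analysed here.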

Additional observations from a re-analysis of the deposited data

How the results depend on the processing

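Among 21 alternatives, 12 of the 19 genes called at 6 h, 11 of the 15 at 12 h and 3 of the 5 at 3 h (Xbp1, Ern1 and Derl2) were called in every one, as were 8 of the 14 from 3 to 6 h and 2 of the 5 from 6 to 12 h. The same was not counted over all called genes, so these counts have no background beside them. No called value changed sign. Of 5355 recomputed values of single genes, 221 lost and 153 gained a call, and 174 values called in neither setting changed sign.

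Library totals gave 1 gene higher and 5 lower at 3 h, 10 higher at 6 h, 1 lower at 12 h, and 11 higher and 2 lower from 6 to 12 h. Of the 11451 tested genes, 785 were then higher and 2320 lower at 3 h, 1048 higher at 6 h and 1716 lower at 12 h. From 6 to 12 h 3090 were higher and 569 lower. With no low-value filter, 6 were lower at 3 h, 2 lower at 12 h, and 2 higher and 8 lower from 6 to 12 h, and 1492 of all genes were called from 3 to 6 h. Among all genes, then more than 11451, 1597 were lower at 3 h and 2238 lower at 12 h. From 6 to 12 h 1780 were higher and 1905 lower. Fitting only the 2 groups compared gave 1 higher at 3 h, 4 higher from 6 to 12 h, and 1532 of all genes at 3 h and 1485 from 3 to 6 h. Higher among all genes were 764 at 3 h and 1943 from 6 to 12 h. DESeq2 gave 2 higher from 6 to 12 h and 1525 of all genes from 3 to 6 h, and limma on log2(FPKM + 0.1) gave 0 higher from 6 to 12 h. Higher among all genes from 6 to 12 h were 1607 with DESeq2 and 1272 with that limma fit. Without both sham replicate 1 and 6 h replicate 3, an alternative chosen after seeing the data, 2 were lower and 5494 of all genes called at 12 h, and 4 were higher and 8 lower from 6 to 12 h. Of all genes, 24.2% were then lower at 12 h, and 16.9% higher and 19.0% lower from 6 to 12 h. The cause of these shifts was not tested.

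Leaving out 1 library at a time gave 1 to 3 genes higher at 3 h, 2 to 4 lower at 6 h, 0 to 2 lower at 12 h, 8 to 19 higher from 3 to 6 h, and 0 to 3 higher and 2 to 8 lower from 6 to 12 h. Among all tested genes, 826 to 1274 were higher at 3 h, 1707 to 2463 lower at 6 h and 1131 to 2666 lower at 12 h. From 3 to 6 h 191 to 1068 were higher, and from 6 to 12 h 947 to 1971 were higher and 906 to 2229 lower. In either direction, the counts of all genes at 12 h were 2112 without 12 h replicate 3 to 5263 without sham replicate 1. From 3 to 6 h they were 400 to 2111 (without 3 h replicate 1 and without sham replicate 1). From 6 to 12 h they were 1853 to 4200 (without 6 h replicate 2 and without sham replicate 1). Where a group was left with 2 libraries, the spread was still pooled over all groups.

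Replicate numbers did not pair the libraries: same-numbered libraries of different groups had correlations of their deviations from the group means of -0.255 to 0.173. The replicate block gave 2 genes higher and 3 lower at 3 h, 17 and 2 at 6 h, 14 higher at 12 h, 12 higher from 3 to 6 h, and 1 higher and 3 lower from 6 to 12 h. Of all tested genes, 1013 were then higher and 1182 lower at 3 h, 1799 and 1947 at 6 h, and 1400 higher at 12 h. From 3 to 6 h 377 were higher, and from 6 to 12 h 1260 were higher and 1254 lower.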
